A study of Mus musculus with 108 samples.

Results

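The genes described here are 10 members of the growth hormone and insulin-like growth factor (IGF) axis, namely Igf1, Igfals, Igfbp1, Igfbp2, Igfbp3, Ghr, Stat5b, Socs2, Cish and Hsd3b5. They were taken by name from the 18193 genes that had a probe set of their own on the array, and all 10 were found. Each gene was read through its brightest probe set, the one with the highest mean over all arrays. The study measured RNA from liver, kidney, heart, lung, whole brain and testis of untreated male mice of 6 inbred strains aged 11 to 14 weeks, with 3 arrays per strain in every tissue. The strains were 129S2, which came from Charles River, and A/J, AKR/J, C3HeB/FeJ, DBA2/J and C57BL/6J, which came from The Jackson Laboratory. Supplier and strain therefore cannot be told apart for 129S2. C57BL/6J, from which the mouse reference genome was assembled, served as the common comparator. All values are log2 signals as the authors deposited them, so a difference of 1 is a doubling, and the spread given with a mean is the SD over 3 arrays.

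Growth hormone from the pituitary binds its receptor Ghr on hepatocytes and activates the kinase Jak2 and the transcription factor Stat5b. Stat5b drives transcription of Igf1, of Igfals and of Socs2 and Cish, a pair of inhibitors that damp the receptor signal. In male rodents the hormone reaches the liver in pulses, and a set of liver genes that includes Hsd3b5 depends on that male pattern. The binding proteins hold IGF in the blood, and Igfals joins Igfbp3 and IGF in a stable complex.

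Medians of single arrays were close within a tissue. They lay between 4.95 and 5.01 in liver and between 6.80 and 6.83 in lung. Spans were wider in heart, between 5.076 and 5.155, and in kidney, between 5.792 and 5.895. Replicate arrays of a strain correlated at 0.9795 or more across probe sets. Since medians differed between tissues, levels were compared between strains within a tissue. The hepatocyte markers, 8 of 9 measured, averaged between 13.88 and 14.06 on every liver array, and the 5 kidney markers averaged no more than 4.26 there. Macrophage markers, 10 of 10 measured, averaged 7.998 to 8.43 in the livers of 129S2, A/J, AKR/J, C3HeB/FeJ and DBA2/J, against 9.07 in C57BL/6J livers. The lung array of C3HeB/FeJ animal 3 stood apart, with skeletal muscle markers at 9.87 and heart markers at 11.82. In such whole-tissue samples, fewer cells of a type and less RNA per cell cannot be told apart.

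In liver, strain differences reached 6 of the 10 genes: Igf1, Igfals, Igfbp1, Igfbp2, Igfbp3 and Hsd3b5 passed the moderated F test of limma over 6 strains, at an adjusted p under 0.05. Over all genes, 31.6% passed the same test. All 10 members had a mean liver signal of at least 6, whereas 51.2% of all genes lay below 6. When only genes of at least 6 were tested, 4954 of 8875 passed, a share close to the 6 of 10 among the members. The highest and lowest strain mean of a member lay 0.90 apart in the median, against 0.26 over all genes, those of low signal included. The 6 members that passed encode the secreted proteins of the axis and the steroid enzyme. By their brightest probe sets, neither the receptor Ghr (adjusted p = 0.128, limma) nor Stat5b (adjusted p = 0.749) nor the inhibitors Socs2 (adjusted p = 0.155) and Cish (adjusted p = 0.99) passed. For Ghr this depended on the probe set, since its others passed at adjusted p of 2.25e-04 and 0.0264 (limma).

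**Figure D1:**
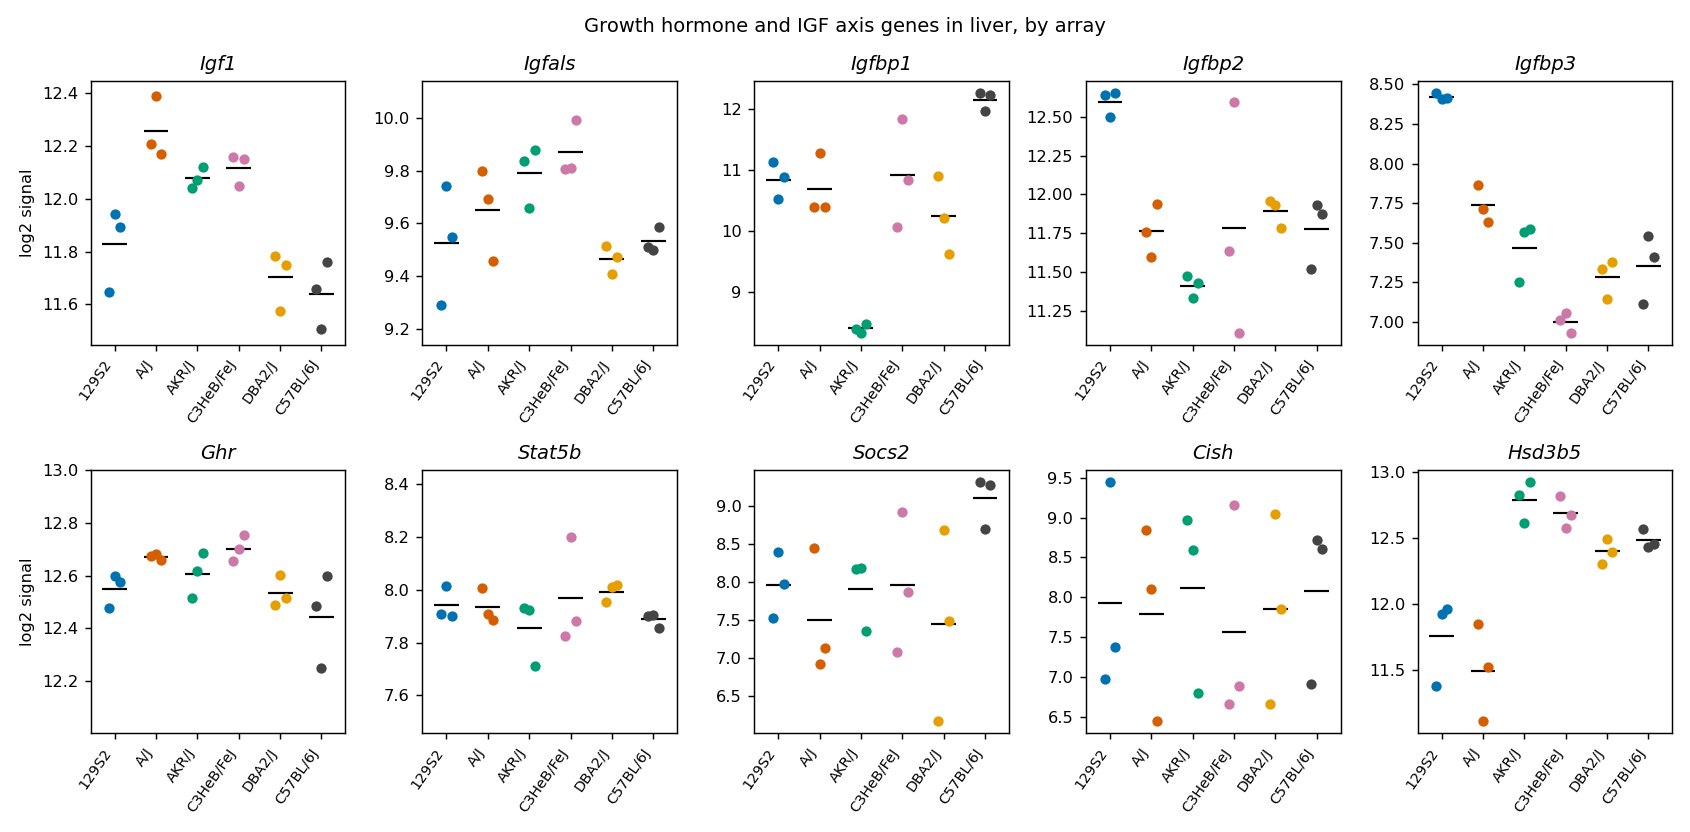
Log2 signal of the 10 genes on each of 18 liver arrays, with strains along the horizontal axis, 1 point per animal and a line at each strain mean; every panel has its own vertical scale. AKR/J lies lowest for Igfbp1, with a mean of 8.39, and 129S2 highest for Igfbp3, at 8.42, while Cish spreads over more than 2 log2 units within 5 of the 6 strains.

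Igf1, the growth factor that carries much of the hormone's effect on body growth, was brightest in A/J livers. Its arrays read 12.21, 12.39 and 12.17 in A/J, 12.16, 12.05 and 12.15 in C3HeB/FeJ, and 12.04, 12.07 and 12.12 in AKR/J. They read 11.65, 11.94 and 11.89 in 129S2, 11.78, 11.57 and 11.75 in DBA2/J, and 11.66, 11.51 and 11.76 in C57BL/6J. Every array of A/J, C3HeB/FeJ and AKR/J thus lay above every array of the remaining 3 strains. A/J exceeded C57BL/6J 1.53-fold, by 0.62 ± 0.091 (SE) on the log2 scale, and the F test gave an adjusted p of 1.08e-04 (limma). Of the 15 pairs of strains, 7 passed at an adjusted p under 0.05, where a pair passed for between 6.46% and 20.1% of all genes. Between pairs that exclude C57BL/6J, the shares of all genes were 8.08%, 9.19%, 9.80% and 13.2% for 129S2 against A/J, AKR/J, C3HeB/FeJ and DBA2/J, and 10.4%, 7.60% and 15.4% for A/J against AKR/J, C3HeB/FeJ and DBA2/J. They were 6.99% and 10.8% for AKR/J against C3HeB/FeJ and DBA2/J, and 6.46% for C3HeB/FeJ against DBA2/J. For Igf1, A/J, C3HeB/FeJ and AKR/J did not pass against one another, nor did 129S2, DBA2/J and C57BL/6J, and 129S2 did not pass against C3HeB/FeJ or AKR/J although their arrays did not overlap. The gene's other 3 probe sets also passed the F test, with A/J or AKR/J highest and C57BL/6J or DBA2/J lowest. The probe set that was brightest in liver itself, at 12.52 on average, had AKR/J highest and C57BL/6J lowest.

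Igfals, which encodes the acid-labile subunit of the circulating complex, varied less. Its means were 9.87 ± 0.11 in C3HeB/FeJ, 9.79 ± 0.12 in AKR/J, 9.65 ± 0.18 in A/J, 9.53 ± 0.23 in 129S2, 9.47 ± 0.053 in DBA2/J and 9.53 ± 0.048 in C57BL/6J (SD, n = 3 each). The adjusted p was 0.0272 (limma), and it came to 0.0516 without AKR/J animal 1, 0.0507 without AKR/J animal 3, 0.0772 without C3HeB/FeJ animal 3 and 0.0574 without DBA2/J animal 2. Of the 15 pairs, C3HeB/FeJ passed against 129S2 (adjusted p = 0.0498, limma), DBA2/J (0.0277) and C57BL/6J (0.0429). The call against C57BL/6J was lost in all 6 fits that left out 1 array of either strain, at adjusted p of 0.0637 to 0.158.

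Igfbp1, a binding protein that the liver makes in fasting and that insulin shuts off, had the widest strain difference of the 10 genes. Its AKR/J livers were lowest, at 8.39, 8.32 and 8.47. Then came DBA2/J at 10.89, 10.21 and 9.62, A/J at 10.40, 11.28 and 10.38, 129S2 at 11.12, 10.52 and 10.89, and C3HeB/FeJ at 10.06, 11.84 and 10.83, against 12.27, 11.97 and 12.23 in C57BL/6J livers. No AKR/J array reached the lowest array of another strain, and no array of another strain reached the lowest C57BL/6J array. AKR/J was 13.6-fold below C57BL/6J, by -3.76 ± 0.35 (SE) in log2 units, at an adjusted p of 5.66e-07 (limma). All 5 pairs that contain AKR/J passed, as did the other 4 that contain C57BL/6J, whereas 129S2, A/J, C3HeB/FeJ and DBA2/J did not pass against one another. The adjusted p of 129S2 minus C57BL/6J came to 0.0612 without 129S2 animal 3. The C3HeB/FeJ difference from C57BL/6J did not pass without C3HeB/FeJ animal 1 (adjusted p = 0.144) or animal 3 (0.0636), nor without C57BL/6J animal 10 (0.0739) or animal 12 (0.0693).

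The Igfbp1 promoter is known, from work on the human gene, for an insulin response sequence bound by FoxO factors. The motif CAAAACAA, which is the core of that sequence, was searched on both strands of the 300-base RefSeq windows of GRCm38.p6 that run from 250 bases before to 50 after each gene start. Of 32851 windows, 2.51% held it. Among the 14 windows of 9 of the axis genes only that of Igfbp1 did, at position -108 on the plus strand of chr11:7197668-7197697, shown because Igfbp1 had the widest strain difference, with the motif in capitals.
Igfbp1: gagctcacaagCAAAACAAacttattttga

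Genes that respond to feeding, glucocorticoids or the hour of the day were set beside the 31.6% of all genes that passed the F test in liver. Of 14 measured genes of fasting and insulin responses 12 passed, or 85.7%, led by the asparagine synthetase Asns, the insulin signalling pseudokinase Trib3, the pyruvate dehydrogenase kinase Pdk4 and the lipogenic enzyme Fasn. Asns was highest in 129S2, at 9.74 ± 0.20, and lowest in A/J, at 5.40 ± 0.21. Fasn was highest in A/J, at 11.40 ± 0.25, and lowest in 129S2, at 9.74 ± 0.29. C57BL/6J, where Igfbp1 was highest, was the highest strain for 3 of these 12 genes, a share close to its 25.5% among all genes that passed. Of 10 glucocorticoid-responsive genes 4 passed, a share close to that of all genes, namely Lcn2, Per1, Dusp1 and Sgk1, with Lcn2 at 4.35 ± 0.28 in DBA2/J and 7.93 ± 2.53 in C57BL/6J. All 17 measured clock genes passed. A/J was highest for 10 of them, or 58.8%, against 20.1% of all genes that passed, and C57BL/6J was lowest for 9, or 52.9%, against 23.3%. The clock output factor Dbp read 11.58 ± 0.043 in A/J, against 5.63 ± 0.68 in C57BL/6J, and Arntl, Per3 and Tef had the next widest spans. The sources used here give neither the feeding state nor the hour of killing, and the part of either in the differences of Igfbp1 or of the other members was not tested.

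Igfbp2, a binding protein made at high levels by liver, was brightest in 129S2. Its arrays read 12.64, 12.50 and 12.65 in 129S2, 11.75, 11.60 and 11.93 in A/J, 11.47, 11.33 and 11.43 in AKR/J, and 11.96, 11.93 and 11.79 in DBA2/J. C3HeB/FeJ read 11.63, 12.60 and 11.11, and C57BL/6J read 11.52, 11.93 and 11.87. A single C3HeB/FeJ liver, that of animal 2, reached the range of 129S2, and the same liver was the brightest of its strain for Igfbp1, Socs2 and Cish. The F test gave an adjusted p of 0.0118 (limma), or 0.0532 without 129S2 animal 4. 129S2 was 1.77-fold above C57BL/6J, by 0.82 ± 0.23 (SE) in log2 units at an adjusted p of 0.0175, which came to 0.0555 without 129S2 animal 4, 0.0501 without 129S2 animal 2 and 0.0858 without C57BL/6J animal 10. 129S2 also passed against A/J, AKR/J and C3HeB/FeJ, while its pair with DBA2/J had an adjusted p of 0.053.

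Igfbp3, the main carrier of IGF in adult blood, differed in 10 of the 15 pairs of strains. Its 129S2 livers read 8.44, 8.41 and 8.41, and its C3HeB/FeJ livers 7.01, 7.05 and 6.93. A/J read 7.86, 7.71 and 7.63, AKR/J 7.25, 7.57 and 7.59, DBA2/J 7.33, 7.14 and 7.38, and C57BL/6J 7.11, 7.54 and 7.41. All 129S2 arrays lay above, and all C3HeB/FeJ arrays below, those of every other strain. 129S2 was 2.09-fold above C57BL/6J (log2 difference 1.07 ± 0.11 SE, adjusted p = 1.18e-06, limma) and 2.68-fold above C3HeB/FeJ. In the order 129S2, A/J, AKR/J, C57BL/6J, DBA2/J and C3HeB/FeJ, only the step between 129S2 and A/J passed among neighbours. A second probe set gave the same highest and lowest strain, with an adjusted p of 3.75e-05. Igfbp3 is the neighbour of Igfbp1 on chromosome 11, transcribed from the other strand, yet the strain orders of the pair were unlike, AKR/J being lowest for Igfbp1 and C3HeB/FeJ lowest for Igfbp3. Markers of liver endothelium, 8 of 8 measured, averaged 7.29 in 129S2, 7.49 in A/J, 7.39 in AKR/J, 7.57 in C3HeB/FeJ, 7.41 in DBA2/J and 7.73 in C57BL/6J livers, an order unlike that of Igfbp3, and their part in the Igfbp3 difference was not tested.

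Ghr, the hormone's receptor, read between 12.25 and 12.76 on all 18 liver arrays. Its means were 12.55 in 129S2, 12.67 in A/J, 12.61 in AKR/J, 12.70 in C3HeB/FeJ, 12.53 in DBA2/J and 12.45 in C57BL/6J. The other 2 Ghr probe sets did pass the F test in liver, at adjusted p of 2.25e-04 and 0.0264, with AKR/J or C3HeB/FeJ highest and C57BL/6J lowest in each. Stat5b, the transcription factor that the receptor activates, read between 7.71 and 8.20 on all liver arrays, and its strain means spanned 0.14. No pair of strains passed for Stat5b.

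Socs2 limits receptor signalling, and mice that lack it grow large. In liver 129S2 read 7.52, 8.40 and 7.98, A/J 8.45, 6.92 and 7.14, AKR/J 8.17, 8.19 and 7.36, C3HeB/FeJ 7.08, 8.92 and 7.87, and DBA2/J 6.17, 8.69 and 7.49, against 9.32, 8.70 and 9.28 in C57BL/6J. The lowest C57BL/6J liver lay below 1 C3HeB/FeJ liver and above all others. All 5 strains had lower means than C57BL/6J, and 1 of the 5 differences passed: A/J minus C57BL/6J was -1.60 ± 0.53 (SE) at an adjusted p of 0.0403 (limma). That difference did not pass without A/J animal 2 (adjusted p = 0.16) or animal 3 (0.127), nor without C57BL/6J animal 10 (0.113), 11 (0.0514) or 12 (0.108). The difference of DBA2/J was -1.65 ± 0.53 (SE), with an adjusted p of 0.0507, or 0.00754 without DBA2/J animal 2. Without that same animal the F test over 6 strains gave 0.0311.

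Cish, the other inhibitor, varied between animals of every strain. Its strain means lay between 7.57 in C3HeB/FeJ and 8.12 in AKR/J, but single livers ran from 6.44 to 9.45. They read 6.97, 9.45 and 7.37 in 129S2, 8.84, 8.10 and 6.44 in A/J, 8.97, 8.59 and 6.80 in AKR/J, 6.66, 9.16 and 6.89 in C3HeB/FeJ, 6.66, 9.04 and 7.85 in DBA2/J, and 6.91, 8.72 and 8.61 in C57BL/6J. Every strain held a low and a high animal, between 4.50-fold and 5.66-fold apart in the other 5 strains and 3.52-fold apart in C57BL/6J. The spread within strains, a residual SD of 1.22, was the fourth widest of 8875 genes with a mean liver signal of at least 6. Socs2 ranked at 25 of them and Igfbp1 at 56.

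Hsd3b5, a liver steroid reductase that male mice express and females nearly lack, was low in A/J and 129S2. Its arrays read 11.85, 11.11 and 11.53 in A/J and 11.38, 11.92 and 11.96 in 129S2. They read 12.83, 12.62 and 12.93 in AKR/J, 12.82, 12.58 and 12.68 in C3HeB/FeJ, 12.31, 12.50 and 12.40 in DBA2/J, and 12.57, 12.44 and 12.45 in C57BL/6J. The arrays of A/J and 129S2 all lay below those of the other 4 strains, and 8 of the 15 pairs passed, which were exactly the pairs that cross this divide. A/J was 1.99-fold below C57BL/6J (log2 difference -0.99 ± 0.16 SE, adjusted p = 1.74e-04, limma) and 129S2 was 1.66-fold below it (-0.73 ± 0.16 SE, adjusted p = 0.00295). Among its relatives, which have similar sequences, Hsd3b2 was also lowest in A/J, at 8.59 ± 0.14, and Hsd3b3 was lowest in 129S2, at 9.64 ± 0.22. Of 5 measured family members 4 passed the F test, against 31.6% of all genes, Hsd3b7 being the fourth.

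Against C57BL/6J the counts of members were small. In 129S2, Igfbp2 and Igfbp3 were higher and Igfbp1 and Hsd3b5 lower (4 of 10 passed, against 18.3% of all genes). In A/J, Igf1 and Igfbp3 were higher and Igfbp1, Socs2 and Hsd3b5 lower (5 of 10, against 20.1%). In AKR/J, Igf1 was higher and Igfbp1 lower (2 of 10, against 14.1%). In C3HeB/FeJ, Igf1, Ghr and Igfals were higher and Igfbp1 and Igfbp3 lower (5 of 10, against 13.4%), and in DBA2/J Igfbp1 alone passed, being lower (1 of 10, against 11.9%). Igfbp1 was lower in each strain, but these 5 contrasts share the C57BL/6J arrays. Macrophage markers averaged 7.998 to 8.43 in the other 5 strains and 9.07 in C57BL/6J livers, and their part in these differences was not tested. Most C3HeB/FeJ calls were lost whichever array was left out. With each of the 6 arrays of both strains left out in turn, Igfals lost its call in 6 fits, Ghr and Igfbp3 in 5 and Igfbp1 in 4. In these fits 1 member passed without C3HeB/FeJ animal 1 or 3, and 2 members passed in the other 4. Of the A/J calls, Igfbp3 did not pass without A/J animal 1 (adjusted p = 0.0824) or C57BL/6J animal 10 (0.115), and 3 members in all passed without the C57BL/6J animal.

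**Figure D2:**
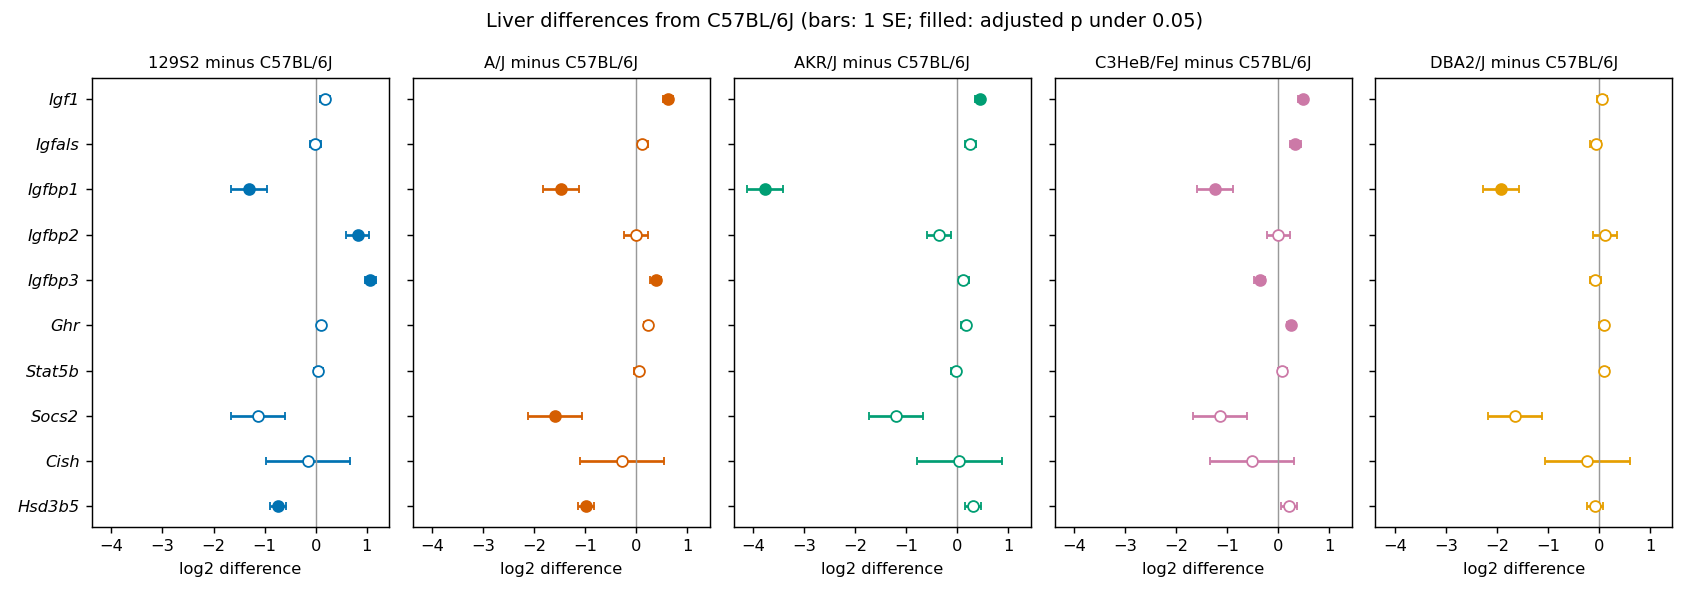
Log2 difference from C57BL/6J in liver for the 10 genes (rows) in each of the other 5 strains (panels); bars are 1 SE and filled points have an adjusted p under 0.05. Igfbp1 is filled to the left of 0 in every panel, down to -3.76 in AKR/J.

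Hsd3b5 is one of many liver genes that male mice express more than females under the male hormone pattern, and 16 of 20 listed genes of that kind were measured. In A/J, 11 of the 16 were lower than in C57BL/6J and 1 was higher, against 10.1% and 9.93% of all genes. The median difference of the list was -0.98, against 0.023 over all genes. The fatty acid elongase Elovl3 averaged 9.33 in A/J and 12.71 in C57BL/6J, a difference of -3.38 ± 0.21 (SE). The adipokine Serpina12 averaged 10.50 in A/J and 11.51 in C57BL/6J, and fell further in 129S2, to 6.86. The glucuronosyltransferase Ugt2b38 averaged 6.81 in A/J, 4.56 in 129S2 and 9.97 in C57BL/6J. In the F test 14 of the 16 passed, against 31.6% of all genes, and A/J was the lowest strain for 9 of these, or 64.3%, against 19.1% of all genes that passed. The widest spans belonged to Moxd1, Ugt2b38, Serpina12 and Elovl3. Moxd1 averaged between 3.70 and 3.96, a low signal, in 129S2, A/J, AKR/J and C3HeB/FeJ, against 6.72 in DBA2/J and 9.49 in C57BL/6J.

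Female-biased genes were mostly higher in A/J: of 14 measured genes of 20 listed, 8 were higher than in C57BL/6J and 1, the oxysterol hydroxylase Cyp39a1 (named after its value was seen), was lower. The median difference was 1.01. Cyp2b9, a cytochrome P450 that male liver normally keeps low, averaged 10.47 in A/J against a low signal of 3.60 in C57BL/6J. The thioesterase Acot3 averaged 7.92 in A/J against 4.71 in C57BL/6J, and the peroxisomal transporter Abcd2 averaged 7.07 against 4.10. The widest spans over strains were those of Cyp4a14, Cyp2b9, Acot3 and Abcd2. In all, 11 of the 14 passed the F test, against 31.6% of all genes, and A/J was the highest strain for 7 of them, or 63.6%, against 20.1% of all genes that passed. Signals were low, since 9 of the 14 genes had a liver mean under 6, and only 1 rather than 8 was called higher in A/J when such genes were left out of the test. In 129S2, 8 male-biased genes were lower and 2 higher than in C57BL/6J, against 9.80% and 8.53% of all genes, and 4 female-biased genes were higher and 1 lower. No females were measured, several of the P450 genes have close relatives that a probe set may also bind, and the lists were put together with earlier results of these data known.

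**Figure D3:**
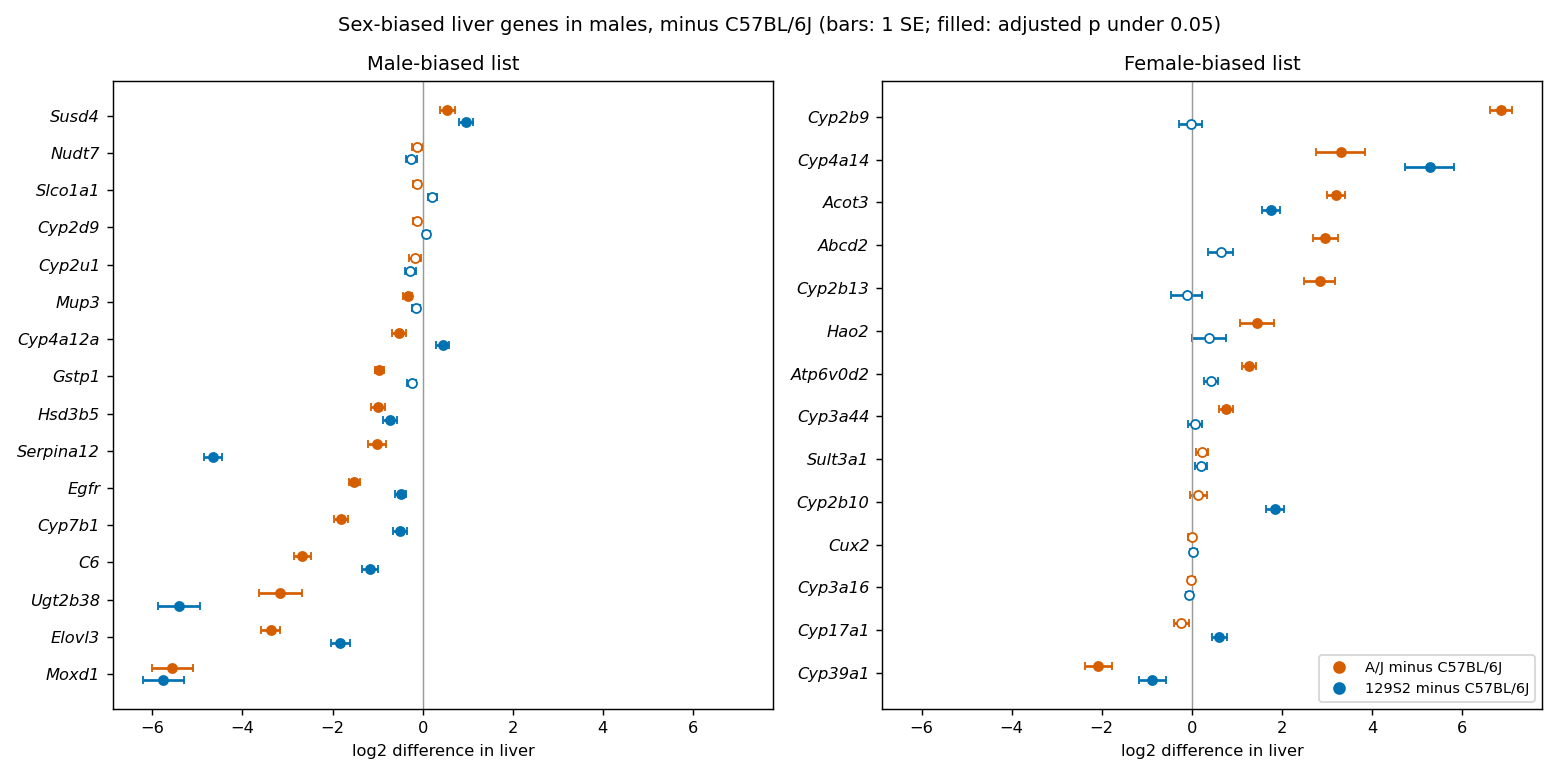
Log2 difference from C57BL/6J in male liver for the 16 male-biased genes (left) and the 14 female-biased genes (right) in A/J and 129S2; bars are 1 SE and filled points have an adjusted p under 0.05. Elovl3 stands at -3.38 in A/J, while the A/J point of Cyp2b9 lies far to the right against a C57BL/6J signal of only 3.60 and gives no measured fold.

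The spread of Cish between animals of a strain was shared by liver and kidney. Kidneys read 7.79, 9.51 and 8.17 in 129S2, 9.002, 8.43 and 7.47 in A/J, 9.10, 8.50 and 7.61 in AKR/J, 7.41, 9.05 and 7.63 in C3HeB/FeJ, 7.58, 8.86 and 7.997 in DBA2/J, and 8.28, 8.91 and 8.95 in C57BL/6J for Cish, in the same order of animals as given above for liver. The animal lowest in liver was lowest in kidney in 6 of 6 strains, and the highest was the same in 5 of 6. With each animal expressed as its deviation from its strain mean, Cish in liver and in kidney correlated at r = 0.979 over 18 animals (exact permutation within strains over 46656 reassignments, two-sided p = 4.29e-05, adjusted p = 0.00193) and at rho = 0.977 (exact p = 4.29e-05, adjusted p = 0.00193). Without the 2 animals farthest from the median r was 0.973. The relation was examined because the spread had been seen, and adjusted p-values cover the 45 relations computed. Over all 18193 genes the median r between liver and kidney was 0.082, and 1 gene besides Cish reached as high a value, the heat-shock cochaperone Dnajb1 at 0.982, a name picked after the values were seen.

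Deviations of Socs2 in liver and kidney correlated at r = 0.805 (exact permutation p = 3.64e-04, adjusted p = 0.00547) and rho = 0.771 (exact p = 0.00126, adjusted p = 0.0114), with r = 0.706 without the 2 farthest animals. Of all genes, 55 had an r at least as high. The same animal was lowest in both organs in 5 of 6 strains and highest in 4 of 6. For the other 8 members r ran from -0.016 for Ghr to 0.507 for Igfbp1, with adjusted p-values of 0.36 or more (exact permutation), and rho from -0.042 to 0.426 with adjusted p-values of 0.613 or more. The labels disagree on the number of 1 of the 129S2 kidneys, and leaving 129S2 out gave r = 0.976 for Cish and 0.813 for Socs2. Hepatocyte markers averaged between 7.19 and 8.19 on kidney arrays, and kidney markers between 4.02 and 4.26 on liver arrays.

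**Figure D4:**
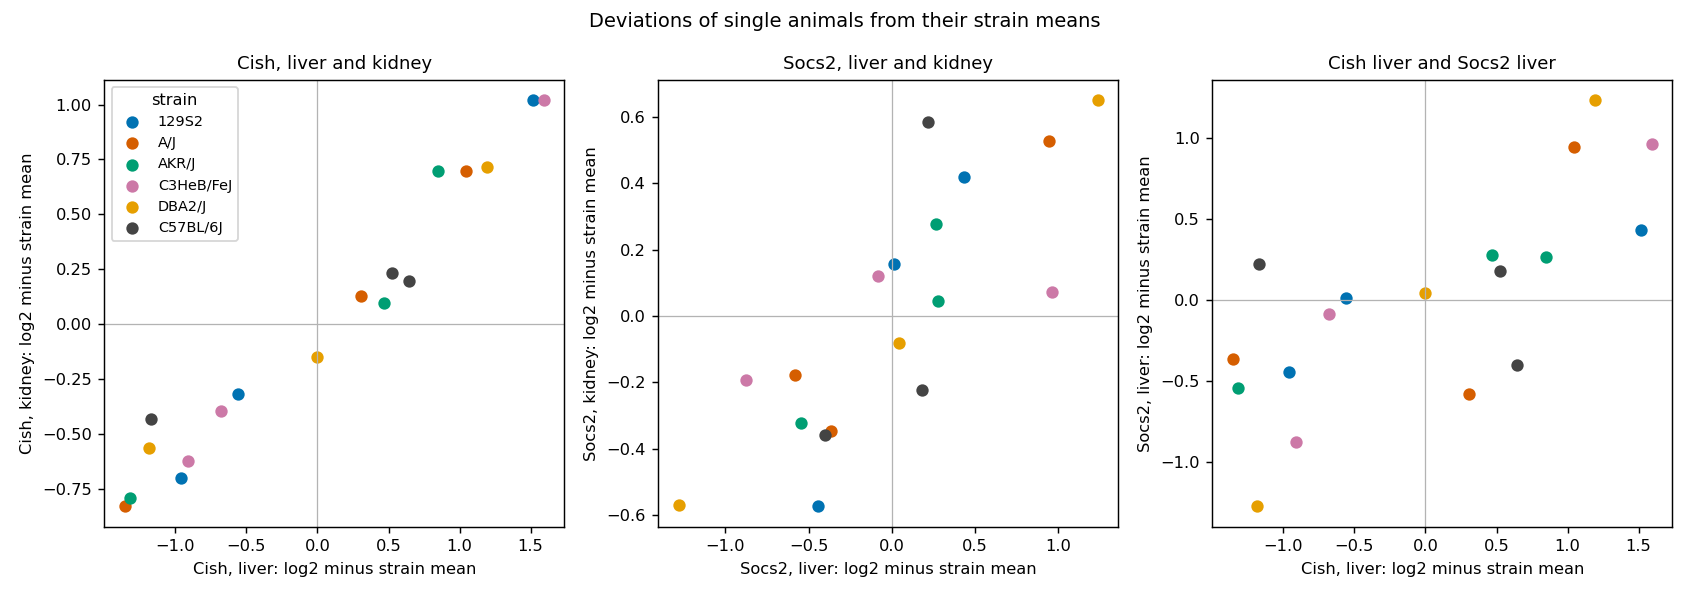
Deviation of each animal from its strain mean in log2 units, for Cish in liver (horizontal) and kidney (vertical), Socs2 in liver and kidney, and Cish and Socs2 in liver; 1 point per animal, coloured by strain. The points of Cish in liver and kidney fall along a rising line with r = 0.979.

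The share of all genes that pass against Cish within liver was not computed, so the counts given next have no background. Within liver, the deviations of Cish passed by r against 2 of the 9 other members and 3 of 18 receptor signalling genes. Against Socs2 they correlated at r = 0.735 (exact permutation p = 0.00529, adjusted p = 0.0397) and rho = 0.746 (exact p = 0.00587, adjusted p = 0.044), or r = 0.723 without the 2 farthest animals. Against Stat5b they correlated at r = 0.769 (exact permutation p = 0.00234, adjusted p = 0.021) and rho = 0.822 (exact p = 0.00109, adjusted p = 0.0114), or r = 0.736 without the 2 farthest animals. The liver factor Onecut1, a target of growth hormone in rodents, gave r = 0.864 (exact permutation p = 3.22e-04, adjusted p = 0.00547) and rho = 0.874 (exact p = 2.57e-04, adjusted p = 0.00579), and 0.851 without the 2 farthest. Socs3, a further inhibitor of cytokine receptors, and Bcl6 did not pass the F test between strains and were named after their relations were seen. Socs3 gave r = 0.737 (exact permutation p = 9e-04, adjusted p = 0.0101) and rho = 0.781 (exact p = 0.00103, adjusted p = 0.0114), and 0.714 without the 2 farthest. Bcl6, a repressor that the hormone is known to lower in mouse liver, ran opposite at r = -0.740 (exact permutation p = 0.00701, adjusted p = 0.0451), with rho = -0.655 short of the threshold (exact p = 0.0215, adjusted p = 0.138), and was highest in the animal lowest for Cish in 6 of 6 strains but lowest in the animal highest for Cish in 2 of 6. The relation with Cish did not pass for Igf1 (r = -0.088, exact permutation p = 0.772, adjusted p = 0.916; rho = -0.102, exact p = 0.731, adjusted p = 0.89) or for Hsd3b5 (r = 0.083, exact p = 0.786, adjusted p = 0.916; rho = 0.055, exact p = 0.861, adjusted p = 0.908).

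Between liver and the other organs of the same animals no relation of Cish passed. The r against testis, over 18 animals, was 0.442 (exact permutation p = 0.12, adjusted p = 0.414), with rho = 0.313 (exact p = 0.293, adjusted p = 0.776). Over the 14 animals shared with lung it was 0.586 (exact permutation p = 0.0529, adjusted p = 0.28), with rho = 0.552 (exact p = 0.0941, adjusted p = 0.419). Heart gave 0.292 (exact permutation p = 0.464, adjusted p = 0.746; rho = 0.235, exact p = 0.546, adjusted p = 0.875) and brain -0.177 (exact p = 0.603, adjusted p = 0.849; rho = -0.134, exact p = 0.691, adjusted p = 0.875). Whether these values differ from that of kidney was not tested.

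Stat5 proteins bind the palindrome TTCNNNGAA, and the promoter windows were searched for it because deviations of Cish and Socs2 went together. It reads the same on both strands, and 8.30% of all 32851 windows of 300 bases held it. Of the 9 axis genes with a window, Cish held it at positions 1 and 12 from its gene start and Igfals at position -236 of one start and -58 of another. Socs2 had no entry in the table. The windows are shown with the motif in capitals, for Cish from chr9:107296654-107296683 and for Igfals from chr17:24877598-24877627 and chr17:24878163-24878192, all on the plus strand of GRCm38.p6 (RefSeq).
Cish: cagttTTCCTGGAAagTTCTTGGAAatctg
Igfals: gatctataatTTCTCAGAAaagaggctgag
Igfals: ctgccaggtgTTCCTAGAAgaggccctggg

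Of 18 measured receptor signalling genes 4 passed the F test between strains in liver, a share of 22.2% against 31.6% of all genes. Onecut1 was highest in AKR/J, at 8.55 ± 0.69, and lowest in A/J, at 6.28 ± 0.53 (adjusted p = 0.00274, limma). The adaptor Grb10 and the inhibitor Socs7 were also highest in AKR/J, while Stat3, which carries interleukin 6 signals, was highest in C57BL/6J at 10.67 ± 0.22. Jak2, the receptor's kinase and so named here outside the widest 4, had strain means that spanned 0.13. None of the 14 other ligands, binding proteins and proteases passed, and 11 of these had a liver mean under 6. Igfbp4, a further binding protein singled out for its bright signal, averaged 13.33 and its strain means spanned 0.16.

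In kidney, Igf1, Igfals, Igfbp1, Igfbp2 and Igfbp3 passed the F test, 5 of 10, a share close to the 46.1% of all genes. Igfbp1 again spanned most, but in another order of strains: its arrays read 9.78, 9.82 and 9.91 in 129S2, 9.05, 8.94 and 8.97 in A/J, 8.43, 8.26 and 7.52 in AKR/J, 7.94, 8.71 and 7.83 in C3HeB/FeJ, 8.63, 7.63 and 7.10 in DBA2/J, and 8.31, 9.14 and 8.34 in C57BL/6J. All 129S2 kidneys lay above those of the other strains, and the adjusted p was 4.15e-04 (limma). AKR/J, lowest by far in liver, overlapped C3HeB/FeJ, DBA2/J and C57BL/6J in kidney. Igfbp2 averaged 5.26 ± 0.14 in 129S2 kidneys, its lowest, and 6.28 ± 0.16 in C57BL/6J kidneys, its highest, with an adjusted p of 5.66e-06, whereas 129S2 had been highest in liver. Its kidney signal was low, at 5.78 on average. Igf1 averaged 7.996 ± 0.052 in A/J and 7.42 ± 0.27 in DBA2/J (adjusted p = 0.00635), and Igfals 7.01 ± 0.20 in DBA2/J and 7.53 ± 0.079 in C57BL/6J (9.24e-04). The other Igf1 probe sets had C57BL/6J rather than A/J highest in kidney, and DBA2/J lowest. Ghr did not pass by its brightest probe set (adjusted p = 0.531), but another one passed (5.19e-05), with AKR/J highest, C3HeB/FeJ lowest and a span of 0.40, and correlated with the first at -0.102 over 18 kidney arrays. Socs2 averaged 7.45 to 7.74 in the other 5 strains and 8.51 ± 0.51 in C57BL/6J kidneys, at an adjusted p of 0.0635. Without A/J animal 1 it came to 0.0338, and without DBA2/J animal 2 to 0.0188. Another Socs2 probe set, which correlated with the used one at 0.982, passed with C57BL/6J highest (adjusted p = 0.0466, limma). A dimmer one, at 5.25 on average, passed with 129S2 highest and C57BL/6J lowest (adjusted p = 0.0462, limma).

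**Figure D5:**
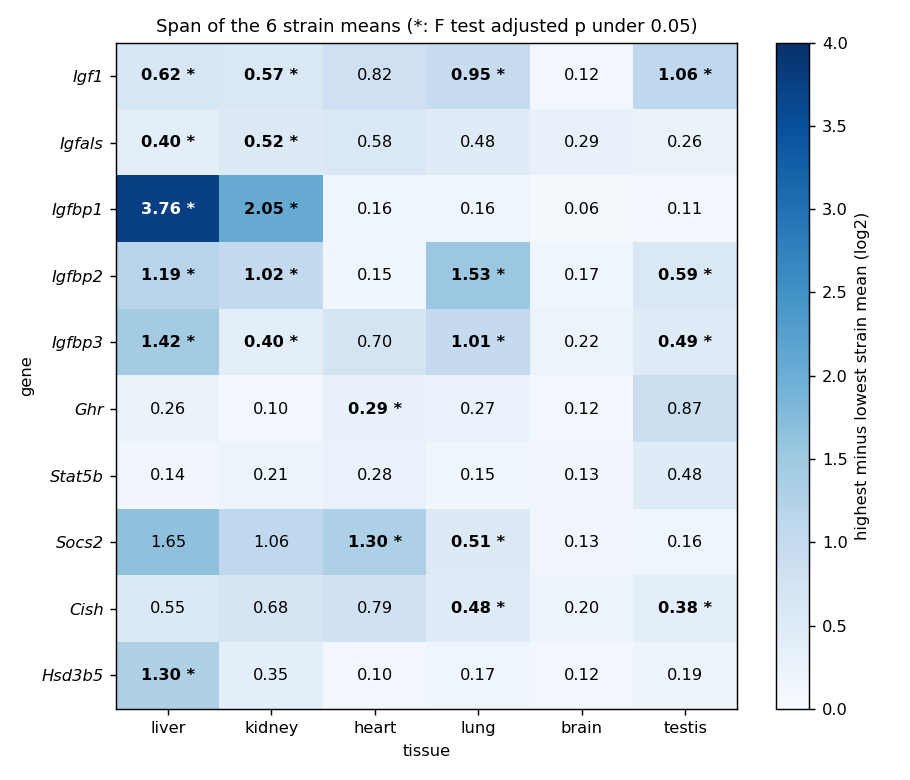
Highest minus lowest strain mean of each gene (rows) in each tissue (columns), in log2 units as printed and by shade; stars mark an F test adjusted p under 0.05. Igfbp1 spans 3.76 in liver and 2.05 in kidney and at most 0.16 in the other 4 tissues, and the brain column has no star.

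In heart, Socs2 and Ghr passed, 2 of 10, a share close to the 21.0% of all genes. Socs2 hearts read 9.15, 8.66 and 9.28 in 129S2, 8.05, 8.12 and 8.21 in A/J, 8.60, 8.55 and 8.68 in AKR/J, 8.21, 8.20 and 8.21 in C3HeB/FeJ, 7.56, 8.06 and 7.58 in DBA2/J, and 8.83, 8.94 and 8.90 in C57BL/6J. DBA2/J was thus low, A/J and C3HeB/FeJ intermediate, and 129S2 and C57BL/6J high, at an adjusted p of 8.82e-06 (limma). Ghr averaged 11.02 ± 0.061 in A/J, its highest, and 10.74 ± 0.023 in C57BL/6J, its lowest, at an adjusted p of 0.049. With 1 heart array left out at a time Ghr lost the call in 14 of 18 fits, with adjusted p-values up to 0.152. Heart Igf1 read 8.40, 8.56 and 7.26 in 129S2, and without 129S2 animal 3 Igf1 (adjusted p = 0.0104), Igfals (0.0424) and Igfbp3 (2.62e-04) passed as well.

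In lung, Igf1, Igfbp2, Igfbp3, Socs2 and Cish passed, 5 of 10, against 32.5% of all genes. Igfbp2 lungs read 12.26, 12.32 and 12.17 in A/J and 12.28, 12.38 and 11.90 in C3HeB/FeJ, against 10.27, 10.74 and 11.15 in DBA2/J. In 129S2 they read 11.39, 11.48 and 11.41, in AKR/J 11.90, 11.94 and 11.91, and in C57BL/6J 11.81, 11.85 and 11.98. DBA2/J was below every other strain, 2.89-fold below A/J, at an F test adjusted p of 1.35e-05 (limma). Igfbp3 averaged 10.14 ± 0.23 in DBA2/J, 10.11 ± 0.14 in A/J and 10.09 ± 0.20 in 129S2, against 9.13 ± 0.16 in C57BL/6J (adjusted p = 3.94e-04). Cish averaged 9.49 ± 0.12 in DBA2/J and 9.08 to 9.17 in 129S2, A/J, AKR/J and C3HeB/FeJ, against 9.56 ± 0.096 in C57BL/6J (adjusted p = 0.00208). The span of Igf1, between 9.10 ± 0.38 in C3HeB/FeJ and 8.15 ± 0.27 in A/J, had an adjusted p of 0.0361. The other Igf1 probe sets did not pass in lung, at adjusted p of 0.0522, 0.0545 and 0.0989. The call by the brightest probe set was lost in 10 of 18 fits with 1 array left out, at up to 0.13 without A/J animal 1. Its adjusted p was 0.0465 without the lung that stood apart. Without that lung the other 4 genes also passed, and Igfals did so as well (adjusted p = 0.039). Fibroblast markers, 8 of 8 measured, were likewise highest in C3HeB/FeJ lungs, at 11.15, and lowest in A/J lungs, at 10.60. So were adipose markers, 4 of 5 measured, at 8.82 in C3HeB/FeJ and 6.84 in A/J, and heart markers, 5 of 5 measured, at 10.49 in C3HeB/FeJ and 8.14 in A/J. The part of these markers in the Igf1 difference was not tested. The Socs2 call (adjusted p = 0.0273) was lost without C57BL/6J animal 2 (0.0623), 3 (0.0725) or 4 (0.0721).

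In testis, Igf1, Igfbp2, Igfbp3 and Cish passed, 4 of 10, a share close to the 40.5% of all genes. Igf1 read 8.07, 8.21 and 8.05 in AKR/J testes. In the other strains it read 7.25, 6.90 and 6.99 in 129S2, 7.33, 7.27 and 7.14 in A/J, 7.25, 7.35 and 7.31 in C3HeB/FeJ, 7.11, 7.17 and 7.01 in DBA2/J, and 7.37, 7.39 and 7.17 in C57BL/6J. AKR/J stood above all of them, at an adjusted p of 1.80e-07 (limma). Another Igf1 probe set passed with 129S2 highest instead (adjusted p = 3.46e-04, limma), and it correlated with the brightest at 0.329 over 18 testis arrays. The remaining Igf1 probe sets had AKR/J highest. Macrophage markers, 10 of 10 measured, averaged 6.98 in AKR/J testes, against 6.42 to 6.68 in the other strains, and fibroblast markers 7.70 against 7.36 to 7.56; their part in the Igf1 difference was not tested. Igfbp2 averaged 7.40 ± 0.20 in A/J and 6.81 ± 0.036 in DBA2/J, and Cish 6.80 ± 0.055 in DBA2/J against 6.42 to 6.58 in the other strains. Igfbp3 had a low signal, at 4.59 on average. In brain none of the 10 passed limma's F test by the probe set used, against 23.1% of all genes, although Igfals and Igfbp3 had an unadjusted p under 0.05. Another Socs2 probe set did pass in brain, with C57BL/6J highest and C3HeB/FeJ lowest (adjusted p = 0.0213, limma). Igfals passed without A/J animal 3 (adjusted p = 0.0218) or 129S2 animal 1 (0.045). The strain means of a member spanned 0.13 there in the median, against 0.19 over all genes.

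Whether the strain differences themselves varied with tissue was tested over all arrays of the 6 tissues with the 25 interaction contrasts, in which 72.5% of all genes passed. Of the members 9 passed, with Cish the exception (adjusted p = 1, limma). Socs2 (adjusted p = 0.0339) lost the call in 12 of the 22 fits that left out 1 animal, at up to 0.138 without C57BL/6J animal 10. Stat5b (0.034) lost it in 8, at up to 0.282 without AKR/J animal 1, and Ghr (0.0125) without AKR/J animal 2 (0.291) or 3 (0.25). The fit used 1 residual spread for all tissues, whereas the spread of Cish within strains was 1.22 in liver and 0.12 in lung.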

How the data were processed

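RNA of single males, as titles name them, was hybridised to Affymetrix arrays. The animals were untreated, killed by cervical dislocation, and their RNA was taken up in TRIzol, per the labels' protocols. The authors deposited log2 values made with RMA (robust multi-array average), per the submitters' processing notes; no source used here gives its version. Array medians differ between tissues, so each tissue was fitted by itself. Array brightness has no read depth, and 3 arrays a group limit the precision.

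Of 45101 probe sets 64 were controls, 9160 had no listed gene and 932 several, and the other 34945 covered 18193 genes. Genes were named from GEO's platform annotation, with 34741 of these probe sets matched to the RefSeq table. The brightest probe set stood for a gene, with no filter on low values. Strain means were compared with limma 3.58.1 in R 4.3.3, by moderated F tests per tissue, contrasts of pairs in liver and an interaction test that took animals as random blocks (consensus correlation 0.0192), with Benjamini-Hochberg adjustment over all genes and a threshold of 0.05. Scripts were tested on simulated data. Tables and permutations used Python 3.11.15 with pandas 2.3.3 and numpy 2.4.6, and figures matplotlib 3.10.9.

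The arrays came from 22 animals by title. A/J, AKR/J, C3HeB/FeJ and DBA2/J gave all tissues from the same animals. C57BL/6J liver, kidney and testis came from animals 10, 11 and 12, and its heart, lung and brain from animals 2, 3 and 4. For C57BL/6J, animal and tissue therefore cannot be told apart between these sets in the interaction test. 129S2 shared only some animals between the same sets of tissues. Source names and titles disagree on the number of 3 brain arrays and 1 kidney array of 129S2, and titles were used. The protocol also speaks of pools, although titles name single animals, and no scan dates or batches are given. Numbers are shared across strains by title only and pair no animals.

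Besides the 10 members, genes are named that passed the F test in liver with the 4 widest spans of their list, and the 5 genes most alike to Igf1 and Igfbp1; exceptions are stated. Members and lists were chosen with earlier results of these data known. Alternatives were the mean of all probe sets, a mean log2 of at least 6, an intensity trend with robust prior, arrays shifted to the same median, a second quantile normalization, the title number as a block, single arrays or animals left out, each other probe set of a member, and a span of at least 0.5.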

Additional observations from a re-analysis of the deposited data

Results flagged for a closer look

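Strain differences of 9 of the 10 genes varied with tissue by the interaction test over all arrays (limma with the animal as a random block, adjusted over all genes), in which 72.5% of all genes passed. The adjusted p was 2.8e-16 for Igfbp1, 6.31e-15 for Igfbp2, 8.15e-11 for Igfbp3, 1.16e-07 for Hsd3b5, 5.18e-07 for Igf1, 9.35e-06 for Igfals, 0.0125 for Ghr, 0.0339 for Socs2 and 0.034 for Stat5b. For Hsd3b5, whose mean signal was at most 4.55 outside liver, the adjusted p was 0.823 when liver was left out. Igfbp1 likewise averaged at most 4.11 in heart, lung, brain and testis. Igfbp2 was highest in 129S2 in liver, lowest in 129S2 in kidney, and highest in A/J in lung and testis. Its kidney signal was low, at 5.78 on average. By the probe set brightest over all arrays, Igf1 was highest in A/J in liver and kidney, in C3HeB/FeJ in lung and in AKR/J in testis. In liver the Igf1 probe set with the highest liver mean, 12.52, had AKR/J highest. In kidney its A/J and C57BL/6J means were 7.996 and 7.96, and its other probe sets all had C57BL/6J highest. In testis another probe set had 129S2 highest.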

How the results depend on the processing

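Counts of members that passed kept within 1.5 times of those reported in liver and kidney under all alternatives, and with single arrays left out ran from 5 to 7 in liver, 5 to 6 in kidney and 4 to 5 in testis. In heart the count of 2 fell to 1 with arrays shifted to the same median, with quantile normalization and with a span of at least 0.5, and ran from 1 to 5 with single arrays left out. In lung the count of 5 fell to 3 with the mean of all probe sets and ran from 3 to 6 with single arrays left out. In brain it was 1 with the mean of all probe sets or with genes of mean log2 at least 6, and 0 to 1 with single arrays left out, and in testis the count of 4 fell to 2 with a span of at least 0.5. Against C57BL/6J in liver, the C3HeB/FeJ count of 5 was 2 with only the arrays of both strains and 1 to 2 with single arrays left out. The DBA2/J count of 1 was 2 with genes of mean log2 at least 6 and with arrays shifted to the same median, and 1 to 2 with single arrays left out. With single arrays left out the counts were 3 to 5 for A/J, 3 to 4 for 129S2 and 2 for AKR/J, and the interaction count ran from 6 to 9. The cause of these shifts was not tested.

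The replicate number was used as a block although nearest arrays of another strain shared it in 7 of 14 cases and same-numbered arrays correlated at -0.181 to 0.168 over 26 pairs. With this block the counts were 6 in liver, 5 in kidney, 2 in heart, 5 in lung, 0 in brain and 5 in testis. The block correlation in liver was 0, so that fit equals the main one and could not change the count. In heart, lung and brain the block also left the number of genes called unchanged, at 3824, 5913 and 4203. Without the animal block the interaction count was 9. Over single members and alternatives, 1415 of the F test results stayed on their side of the threshold, 47 lost and 32 gained a call; for differences from C57BL/6J these were 597, 42 and 11. No difference changed sign past the threshold. Igfbp2 in liver had an adjusted p of 0.0557 with an intensity trend and robust prior. The count of male-biased genes lower in A/J ran from 10 to 13, and that of female-biased genes higher in A/J was 8 or 9 except for 1 when genes of mean log2 under 6 were left out. Low signal limits Hsd3b5 outside liver, Igfbp1 outside liver and kidney, and Igfbp2 in kidney, where it averaged 5.78. Of the 10 members, 2 averaged under 6 in kidney, 4 in heart, 2 in lung, 3 in brain and 7 in testis.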

Other observations

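Across the 18 liver arrays and among 8874 other genes with a mean signal of at least 6, the levels most like those of Igf1 were Cyp2g1 and Gamt at r = 0.929, Ypel5 at 0.923, Epha1 at 0.899 and Tsnax at 0.898. Gamt encodes the methyltransferase that completes creatine synthesis. For Igfbp1 they were Odr4 at 0.877, Pilrb1 at 0.865, Arrb2 and Chst15 at 0.848 and Gimap4 at 0.841. The arrays share strains and animals, so these values are descriptions.

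A second probe set of Ghr differed from the first in testis. Its strain means there spanned 1.64, with C57BL/6J highest and DBA2/J lowest (adjusted p = 1.72e-07, limma). The probe set used for Ghr, brightest over all arrays, spanned 0.87, with AKR/J highest and DBA2/J lowest (adjusted p = 0.148, limma). In testis the used probe set was the dimmer of these, at 5.12 on average against 6.07.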
